A study of Mus musculus with 8 samples.

Results

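RNA from cultured bone marrow stromal cells of Id1-/- mice was compared with RNA from Id1+/+ mice, both taken 6 weeks after transplantation of acute myeloid leukaemia driven by the fusion oncogene MLL-AF9. The comparison uses 4 of the 8 samples of the series: 2 libraries from MLL-AF9 Id1-/- cultures and 2 from MLL-AF9 Id1+/+ cultures, read as raw counts per gene over the whole table, in which 14137 of 15994 rows could be tested. The animals of both groups carried the same leukaemia, so no group is free of disease. The cells were those that adhered after marrow and bone were plated together in a-MEM with serum, a method that keeps marrow macrophages as well as mesenchymal cells. The study title points to the secreted protein ANGPTL7 and to Id1 in the leukaemic niche.

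Id1 encodes a helix-loop-helix protein without a DNA-binding region. It pairs with E proteins such as Tcf3, Tcf4 and Tcf12 and keeps them, and their tissue-specific partners such as Twist1 and Tal1, from binding E-box sequences. In marrow, mesenchymal stromal cells supply matrix, adhesion sites and growth factors to blood-forming cells, and macrophages of the same cultures degrade engulfed material in lysosomes.

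Id1 itself had 226 and 222 counts in Id1-/- libraries, against 706 and 632 in Id1+/+ libraries (log2 fold -1.43, SE 0.12, adjusted p = 4.23e-07). The groups did not overlap, and the gene was still read in each Id1-/- library. Which part of Id1 is deleted is not given in the sources used here, so this value checks the labels only as far as reads outside the deletion allow. Adjusted p-values throughout are from edgeR quasi-likelihood tests with Benjamini-Hochberg adjustment over all 14137 genes tested. Differences are log2 folds with Id1-/- on top. Levels are CPM, counts relative to library size after TMM scaling, which compare a gene between libraries but not with other genes, since they are not divided by length. A gene was called at an adjusted p under 0.05. The labels number the replicates without naming animals, so the p-values measure genotype against the spread between libraries.

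Library totals were 18727623 and 17864812 counts in Id1-/- and 21480068 and 22510346 in Id1+/+. Of the genes tested, 2434 (17.2%) were called higher in Id1-/- cultures and 1502 (10.6%) lower. The libraries of the genotypes did not overlap for 2433 of the higher calls and 1500 of the lower, so separation adds little to a call. Over all genes tested, both Id1-/- libraries lay above both Id1+/+ libraries for 33.5% and below them for 31.5%. Higher calls were 61.8% of all calls with TMM scaling and 84.0% with library totals alone, a scaling that moves the median gene by 0.11 on the log2 scale. Small decreases therefore depend on the scaling. Macrophage marker transcripts (14 of 14 listed genes in the table) held 2.91% and 2.84% of the Id1-/- libraries and 3.32% and 3.10% of the Id1+/+ libraries. Mesenchymal marker transcripts (12 of 12), collagen I included, held 0.338% and 0.364% of Id1-/- and 0.0682% and 0.0762% of Id1+/+ libraries. Without the collagens Col1a1 and Col1a2 the other 10 held 0.0295% and 0.0301% of Id1-/- and 0.0216% and 0.0213% of Id1+/+ libraries. Endothelial transcripts summed to 0.00717% and 0.00835% in Id1-/- and 0.00565% and 0.00660% in Id1+/+, with 0 of 6 tested called. T and NK cell transcripts summed to 41 and 27 counts in Id1-/- and to 47 and 25 in Id1+/+, and erythroid transcripts to 13 and 11 in Id1-/- and to 33 and 41 in Id1+/+. None of the 2 T and NK genes and the 1 erythroid gene tested passed with edgeR, with limma-voom or with DESeq2, and the endothelial genes had 2 at an unadjusted edgeR p under 0.05. Wherever a gene list below has 0 calls by edgeR in a direction, DESeq2 and limma-voom also gave 0, and 0 to 2 members had an unadjusted edgeR p under 0.05 in that direction. In such bulk cultures, more cells of a type and more RNA per cell cannot be told apart, and the part that these marker levels play in the results below was not tested.

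The Id1-/- libraries were not equal to each other for every gene. Replicate 1 exceeded replicate 2 by more than 2-fold for 71 of the 2434 genes called higher, and replicate 2 exceeded replicate 1 by that much for 6. Between the Id1+/+ libraries, 57 of these 2434 genes differed by more than 2-fold in either direction, so over all counts such inequality was not particular to Id1-/-. Among higher calls, the excess of Id1-/- replicate 1 beyond 2-fold was more frequent at larger folds. It held for 0.274% of the 729 genes between 0.5 and 1 on the log2 scale and for 12.4% of the 170 genes between 2 and 3. Above 3 it held for 35.5% of the 76 genes. A high replicate 1 itself raises the fold, and these bins have no floor on counts, so the trend is not a separate finding. Genes called lower showed little inequality, with 3 and 4 of 1502 beyond 2-fold in either direction between the Id1-/- libraries. Between the Id1+/+ libraries 3 of them were beyond 2-fold. Each gene and gene list below was therefore checked for evenness. A call is termed even where the gene was also called, with the same sign, without Id1-/- replicate 1 and without Id1-/- replicate 2, and where the Id1-/- libraries differed by less than 1.5-fold. Without Id1-/- replicate 1, 1604 of 14634 genes were called higher (11%) and 621 lower (4.24%), and without replicate 2, 1722 of 14721 were higher (11.7%) and 755 lower (5.13%). By this rule 1158 genes (8.19% of those tested) were higher and even, and 394 (2.79%) were lower and even. Both fits share the Id1+/+ libraries with the full fit and have 1 library fewer, so evenness is a filter and not independent support, and small fold changes pass it less often: 11.5% of higher calls up to 0.5 on the log2 scale were even, against 66.5% of those between 1 and 2.

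**Figure D1:**
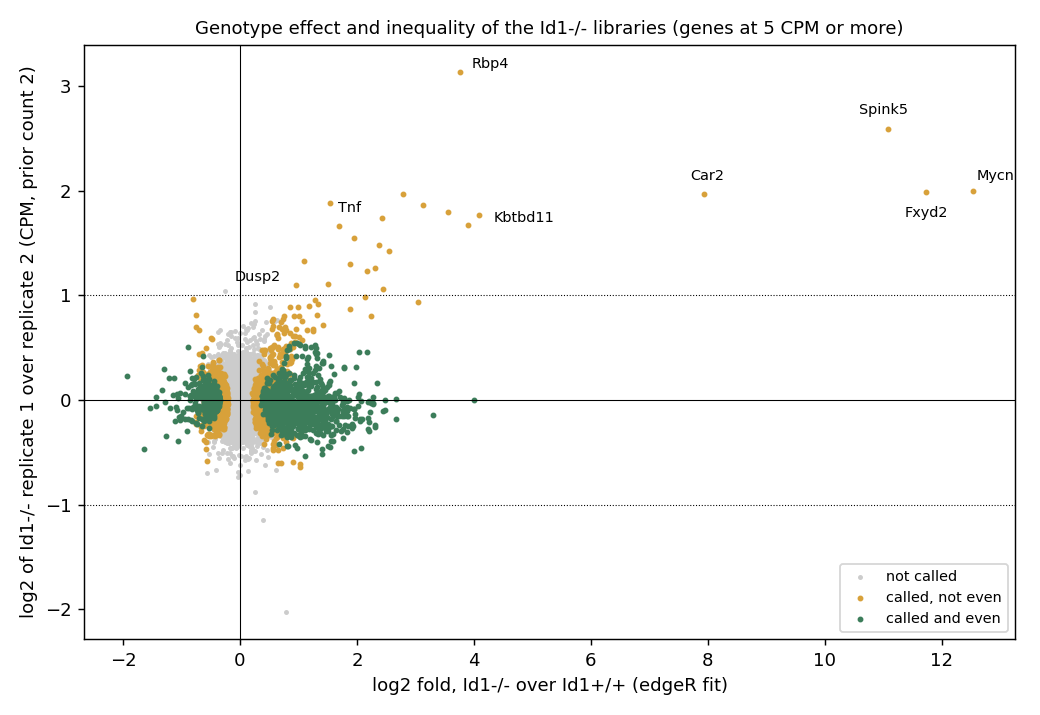
Log2 fold of Id1-/- over Id1+/+ (horizontal) against the log2 ratio of Id1-/- replicate 1 over replicate 2 (vertical) for genes whose mean reached 5 CPM, with dotted lines at 2-fold. Even calls (green) lie near the horizontal axis, while 23 higher calls lie above the upper dotted line and none lies below the lower one. The fitted fold of the 3 genes furthest to the right rests on 0 counts in Id1+/+ and is not a measured size.

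Among genes whose mean reached 5 CPM, 23 of 1706 higher calls were more than 2-fold higher in Id1-/- replicate 1 than in replicate 2, and 0 were so in reverse. Their replicate 1 level exceeded that of replicate 2 by 2.09-fold to 8.80-fold, with a median of 3.20-fold. No gene called lower at this level, and no gene called higher, differed by 2-fold between the Id1+/+ libraries. By annotation, 8 of the 23 (34.8%) are pseudogenes, against 1 of 905 even higher calls (0.110%) and 185 of all 10238 genes at this level (1.81%). They include Rps2-ps10, at 40.9 and 12.7 CPM in Id1-/- and 1.32 and 2.24 in Id1+/+, and Gm8730, at 73.1 and 20.95 CPM in Id1-/- and 3.43 and 4.56 in Id1+/+. Pseudogenes share sequence with their parent genes, so the counts of these rows are uncertain.

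The protein-coding genes of this uneven set include inflammatory cytokines. Tnf was at 180 and 53.8 CPM in Id1-/- and 21.6 and 22.1 in Id1+/+, and the chemokine Cxcl2 at 51.2 and 12.99 in Id1-/- and 4.75 and 4.56 in Id1+/+. In both, the Id1+/+ pair lay close together and the Id1-/- pair apart. The lysozyme gene Lyz1 was at 36.5 and 17.4 CPM in Id1-/- and 5.10 and 4.84 in Id1+/+. Arc, an immediate early gene known from neurons, was at 11.7 and 3.63 CPM in Id1-/- and 2.70 and 2.05 in Id1+/+, and it was not called without Id1-/- replicate 1 (adjusted p = 0.227). Rbp4, the carrier of retinol in blood, was at 20.3 and 2.22 CPM in Id1-/- and 0.637 and 1.004 in Id1+/+, and leaving out Id1-/- replicate 1 took its log2 fold of 3.77 to 1.42 (adjusted p = 0.0593). The transcription factor gene Mycn had 1146 and 270 counts in Id1-/- and 0 in both Id1+/+ libraries. The epithelial and kidney list (5 of 12 genes in the table) summed to 687 and 176 counts in Id1-/- and to 25 and 41 in Id1+/+, nearly all of it from Fxyd2 with 658 and 155 in Id1-/- and 0 in both Id1+/+ libraries. The cadherin Cdh1, with 14 and 13 counts in Id1-/- and 24 and 33 in Id1+/+, did not share this. Neither did Slc12a1, with 8 and 8 in Id1-/- and 1 and 8 in Id1+/+. The keratins Krt8 (2 and 0 counts in Id1-/-) and Krt18 (5 and 0) were read only in Id1-/- replicate 1, with too few counts to be weighed. Reads of the Y chromosome were unequal too: Eif2s3y had 42 and 9 counts, Kdm5d 40 and 5 and Ddx3y 26 and 3 in Id1-/- replicates 1 and 2, and each had 0 in both Id1+/+ libraries. The X-linked Xist, made from the inactive X of female cells, had 5394 and 5782 counts in Id1-/- and 3642 and 5088 in Id1+/+. All 4 libraries thus hold Xist and only the Id1-/- libraries hold these Y-linked reads. Their part in the inequality, and whether the Id1-/- libraries hold RNA from another source, was not tested, and the Id1-/- levels of the uneven genes are to be read with that limit.

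Transcription factors of mesenchymal cells were mostly higher in Id1-/- cultures. Of 30 tested, 21 (70.0%) were called higher and 0 lower, 17 of them evenly, with a median log2 fold of 1.11 where all genes tested had 0.00. Tead1, the DNA-binding partner of the coactivators YAP and TAZ, was at 30.2 and 31.7 CPM in Id1-/- and 11.9 and 12.5 in Id1+/+ (log2 1.34, SE 0.11, adjusted p = 3.04e-07). The calcineurin-dependent factor Nfatc4 was at 19.03 and 20.9 CPM in Id1-/- and 6.81 and 6.53 in Id1+/+ (log2 1.58). Snai2, which represses epithelial genes, was at 15.1 and 17.9 CPM in Id1-/- and 5.83 and 6.16 in Id1+/+ (log2 1.46). In each of these genes both Id1-/- libraries lay well above both Id1+/+ libraries. Foxf1, at 0.767 and 2.003 CPM in Id1-/- and 0.245 and 0.319 in Id1+/+, was uneven in the other direction and was not called without Id1-/- replicate 2 (adjusted p = 0.238) or without Id1+/+ replicate 1. This list and the summed mesenchymal marker transcripts given above were both higher in Id1-/-. Prrx1 is a member of both, and a link between them was not tested.

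Basic helix-loop-helix genes, the wide family to which the E proteins, Twist1 and Tal1 belong, gave a mixed picture. Of 33 tested, 14 (42.4%) were higher and 5 lower, with a median log2 fold of 0.24, but 3 were higher and 1 lower evenly. The 3 even ones include the mesenchymal factor Twist1, at 13.4 and 14.5 CPM in Id1-/- and 4.95 and 4.93 in Id1+/+ (log2 1.49, adjusted p = 2.94e-06), and Epas1, the hypoxia-inducible factor 2 subunit, at 20.8 and 20.8 CPM in Id1-/- and 11.9 and 14.4 in Id1+/+ (log2 0.66). The third was Mxd4, a Max partner that opposes Myc, with a log2 fold of 0.43. The even decrease was that of Tfec, a macrophage relative of TFEB, at 15.1 and 14.1 CPM in Id1-/- and 20.3 and 20.9 in Id1+/+ (log2 -0.49). The E protein genes, whose products Id1 binds, were called higher by small amounts and none evenly. Tcf3 was at 62.5 and 69.7 CPM in Id1-/- and 50.2 and 51.7 in Id1+/+, Tcf4 at 129 and 126 in Id1-/- and 100.3 and 105 in Id1+/+, and Tcf12 at 60.9 and 58.0 in Id1-/- and 46.6 and 44.4 in Id1+/+, with log2 folds of 0.37, 0.31 and 0.39. Without an Id1-/- library these calls were lost for Tcf3 (replicate 2), Tcf4 and Tcf12 (replicate 1). Tal1, a factor of blood-forming cells that binds with E proteins, was the uneven case, at 3.12 and 1.08 CPM in Id1-/- and 0.294 and 0.228 in Id1+/+, and leaving out Id1-/- replicate 1 took its log2 fold of 2.99 to 2.03 (adjusted p = 0.0739). The number of members called higher was 7 without Id1-/- replicate 1, 8 without Id1-/- replicate 2, 8 without Id1+/+ replicate 1 and 9 with DESeq2.

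Components of the Hedgehog pathway were mostly higher. In this pathway the co-receptors Gas1, Boc and Cdon present ligand to Ptch1, which then releases Smo, and Gli proteins carry the signal to the nucleus. Of 10 members tested, 8 (80.0%) were called higher and 0 lower, 6 evenly, with a median log2 fold of 1.39. Gas1 (ENSMUSG00000052957.8, chromosome 13, 60174405 to 60177365, minus strand, GRCm38) was at 30.9 and 33.4 CPM in Id1-/-, against 7.30 and 6.48 in Id1+/+ (log2 2.22, SE 0.13, adjusted p = 4.38e-09). Smo was at 26.7 and 26.6 CPM in Id1-/- and 9.56 and 9.72 in Id1+/+ (log2 1.47, SE 0.12, adjusted p = 2.01e-07). The libraries of a genotype lay close together for both genes, and the genotypes did not overlap. Ptch1, which is also a target gene of the pathway, was at 12.6 and 9.64 CPM in Id1-/- and 4.61 and 5.39 in Id1+/+ (log2 1.16), and Gli3 at 8.13 and 8.28 in Id1-/- and 2.60 and 2.88 in Id1+/+ (log2 1.58). The co-receptors Boc and Cdon had log2 folds of 1.32 and 1.54. Gli2 had 18 and 9 counts in Id1-/- and 3 and 0 in Id1+/+, too few for its size to be read.

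Receptor tyrosine kinases shared this pattern, with 15 of 23 (65.2%) higher, 0 lower and 13 even (median log2 0.95). Ddr2, a kinase that fibrillar collagen activates (ENSMUSG00000026674.9, chromosome 1, 169972307 to 170110762, minus strand), was at 49.4 and 52.3 CPM in Id1-/- and 15.5 and 17.7 in Id1+/+ (log2 1.61, SE 0.11, adjusted p = 1.65e-08). The fibroblast growth factor receptor Fgfr1 was at 66.4 and 72.1 CPM in Id1-/- and 31.4 and 28.8 in Id1+/+ (log2 1.20), and the Wnt co-receptors Ryk and Ptk7 had log2 folds of 1.15 and 1.03. Among growth factor ligands 12 of 33 (36.4%) were higher, 11 of them evenly, and 3 lower with 0 even, and lower calls numbered 1 with library totals or when either Id1-/- library was left out. The activin and inhibin chain Inhbb was at 22.8 and 22.4 CPM in Id1-/- and 4.41 and 4.88 in Id1+/+ (log2 2.28, SE 0.14, adjusted p = 9.25e-09), and its relative Inhba at 174 and 180 in Id1-/- and 74.5 and 92.9 in Id1+/+ (log2 1.08). Both activin chains were thus higher in both Id1-/- libraries. The epithelial mitogen Fgf7 and the cytokine Tgfb2 had log2 folds of 1.11 and 1.64. The called decreases include Vegfb (-0.36) and Ereg (-0.90), neither of them even.

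Genes that report on the ERK pathway, which such receptors feed, were called in both directions. Of 20 ERK feedback and ETS genes, 6 (30.0%) were higher and 3 lower, of which 2 and 1 were even, and 2 were higher without Id1-/- replicate 1 or with DESeq2. Spry1, an inhibitor of receptor signalling, was at 4.71 and 5.74 CPM in Id1-/- and 1.57 and 2.78 in Id1+/+ (log2 1.25), while its relative Spry2 was at 17.0 and 17.3 in Id1-/- and 26.1 and 26.4 in Id1+/+ (log2 -0.62). These family members differed in opposite directions, both evenly. Dusp2, a phosphatase that acts on MAP kinases, was at 22.7 and 10.5 CPM in Id1-/- and 8.33 and 8.76 in Id1+/+, and its log2 fold of 0.96 was 0.29 without Id1-/- replicate 1 (adjusted p = 0.304).

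Targets of YAP and TAZ, coactivators that respond to cell spreading and stiffness and bind DNA through TEAD factors, were higher in 16 of 23 cases (69.6%) and lower in 2, with 13 higher and 0 lower evenly (median log2 0.76). The angiomotins Amotl1 and Amotl2, which hold YAP in the cytoplasm, were at 31.8 and 33.6 CPM in Id1-/- and 7.45 and 10.3 in Id1+/+ for Amotl1 (log2 1.88, SE 0.14), and at 90.9 and 109 in Id1-/- and 38.9 and 41.0 in Id1+/+ for Amotl2 (log2 1.32). The matrix-associated protein Ccdc80 was at 49.0 and 51.9 CPM in Id1-/- and 14.997 and 16.4 in Id1+/+ (log2 1.68). All 3 were even. The called decreases, Gadd45a (-0.35) and Nuak2 (-0.36), were not even, and both were lost with library totals.

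Promoters of this list were searched for the TEAD motif GGAATG on both strands (CATTCC when read from the other), in the 250 bases before each start in the RefSeq promoter table (GRCm38.p6), for which 16 of the 23 tested genes matched by symbol with 18 promoters. The motif lay in 7 of 18 (38.9%), against 10.6% of the 13277 promoters of all genes tested and 13.6% of those of even higher calls. Windows of 100 bases are shown for 3 even members to let the motif be seen in its context, with the motif or its reverse complement in capitals. Ptpn14, a phosphatase that restrains YAP, lies at chr1:189728075-189728174 on the plus strand, Crim1, a membrane protein that binds BMPs, at chr17:78200122-78200221 on the plus strand, and Ajuba, a LIM protein of junctions, at chr14:54577773-54577872 on the minus strand.
Ptpn14: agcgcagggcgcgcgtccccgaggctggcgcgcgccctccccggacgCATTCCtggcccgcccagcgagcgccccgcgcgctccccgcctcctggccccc
Crim1: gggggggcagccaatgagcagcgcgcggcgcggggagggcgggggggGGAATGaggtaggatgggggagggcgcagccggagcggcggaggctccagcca
Ajuba: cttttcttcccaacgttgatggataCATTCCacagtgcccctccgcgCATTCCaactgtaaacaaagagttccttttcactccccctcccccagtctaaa
Ptpn14 was at 28.2 and 30.8 CPM in Id1-/- and 9.80 and 12.3 in Id1+/+ (log2 1.41), Crim1 at 30.1 and 34.6 in Id1-/- and 15.1 and 15.9 in Id1+/+ (log2 1.06), and Ajuba at 19.95 and 22.4 in Id1-/- and 11.3 and 12.3 in Id1+/+ (log2 0.84). A match is a description of the letters in these windows and not evidence of binding. The list holds known YAP and TAZ targets, so its share of this motif is not a result about these cultures.

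By number, focal adhesion genes gave the most even calls of the 46 lists, a count that also depends on the length of a list. The shorter Hedgehog list had 6 even calls among 10 members tested. Over all genes tested, 8.19% were higher and even. Of 42 focal adhesion and actin genes, 31 (73.8%) were higher and 0 lower, 22 evenly (median log2 0.66). Synpo, an actin-bundling protein, was at 27.5 and 31.2 CPM in Id1-/- and 6.86 and 6.89 in Id1+/+ (log2 2.09, SE 0.13, adjusted p = 9.03e-09). Palld, a scaffold of stress fibres, was at 82.0 and 83.9 CPM in Id1-/- and 29.5 and 32.2 in Id1+/+ (log2 1.43), and the motor Myh10 had a log2 fold of 1.80. No member of this list was called lower. Of 9 caveolae genes, which shape membrane pits, 6 (66.7%) were higher, 5 evenly, and 1 lower. Cavin1 was at 119 and 129 CPM in Id1-/- and 57.0 and 55.7 in Id1+/+ (log2 1.14), and Cav1 at 22.97 and 22.7 in Id1-/- and 8.97 and 6.12 in Id1+/+ (log2 1.60). Its partner Cav2 went the other way, at 86.2 and 89.5 CPM in Id1-/- and 117 and 102 in Id1+/+ (log2 -0.31), a call lost with library totals and on leaving out Id1-/- replicate 1, Id1-/- replicate 2 or Id1+/+ replicate 1. Of 22 tubulin and microtubule genes 8 (36.4%) were higher and 2 lower, of which 6 and 1 were even. There Tuba1a was at 129 and 124 CPM in Id1-/- and 72.8 and 71.7 in Id1+/+ (log2 0.81), and Tuba4a at 117 and 117 in Id1-/- and 172 and 161 in Id1+/+ (log2 -0.51), so these alpha-tubulin genes differed in opposite directions.

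Cell contact genes were mostly higher where called. Of 30 cadherin and junction genes 15 (50.0%) were higher and 2 lower, of which 10 and 1 were even (median log2 0.74). Gja1, the gap junction protein connexin 43 (ENSMUSG00000050953.10, chromosome 10, 56377330 to 56402513, plus strand), was at 97.3 and 98.9 CPM in Id1-/- and 35.5 and 37.2 in Id1+/+ (log2 1.43, SE 0.09, adjusted p = 6.85e-09). The giant cadherin Fat1 was at 103 and 111 CPM in Id1-/- and 30.2 and 37.3 in Id1+/+ (log2 1.66), and N-cadherin, Cdh2, at 42.8 and 42.7 in Id1-/- and 13.9 and 15.1 in Id1+/+ (log2 1.56). F11r, a junctional adhesion molecule of leukocytes and epithelia, was at 9.16 and 9.31 CPM in Id1-/- and 14.2 and 14.2 in Id1+/+ (log2 -0.62). The tight junction gene Cldn11 was the uneven member, with 175 and 28 counts in Id1-/- and 3 and 0 in Id1+/+. Of 42 semaphorins, ephrins and guidance receptors 25 (59.5%) were higher and 0 lower, 16 evenly (median log2 0.88). The netrin receptor Unc5b was at 85.4 and 88.8 CPM in Id1-/- and 31.6 and 35.1 in Id1+/+ (log2 1.38), the ephrin Efnb1 at 51.4 and 58.6 in Id1-/- and 22.0 and 19.8 in Id1+/+ (log2 1.40), and the Robo ligand Slit2 at 17.0 and 20.3 in Id1-/- and 5.78 and 6.94 in Id1+/+ (log2 1.55).

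Integrin subunits were called in both directions. Among 13 subunits of adherent cells 5 (38.5%) were higher and 1 lower, with 3 higher and 0 lower evenly, and 3 were higher without Id1-/- replicate 1. Itga11, a collagen receptor subunit of fibroblasts (ENSMUSG00000032243.8, chromosome 9, 62677826 to 62783982, plus strand), was at 55.5 and 61.6 CPM in Id1-/- and 16.8 and 18.1 in Id1+/+ (log2 1.75, SE 0.10, adjusted p = 5.49e-09). Among 8 leukocyte subunits 2 (25%) were higher and 4 lower, of which 0 and 1 were even, and library totals gave 2 lower calls, the fit without Id1-/- replicate 1 a single one. Itgb7 was at 103 and 110 CPM in Id1-/- and 163 and 170 in Id1+/+ (log2 -0.65, SE 0.08, adjusted p = 1.75e-05). Itgb7 pairs with Itga4, which was uneven: Itga4 (ENSMUSG00000027009.18, chromosome 2, 79255426 to 79333123, plus strand) was at 127 and 65.8 CPM in Id1-/- and 37.2 and 42.2 in Id1+/+. Its log2 fold of 1.28 (SE 0.20, adjusted p = 0.00016) was 0.72 without Id1-/- replicate 1 and 1.68 without Id1-/- replicate 2, so its size rests on which library is used. Both Id1-/- libraries lay above both Id1+/+ libraries, as in nearly all higher calls.

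**Figure D2:**
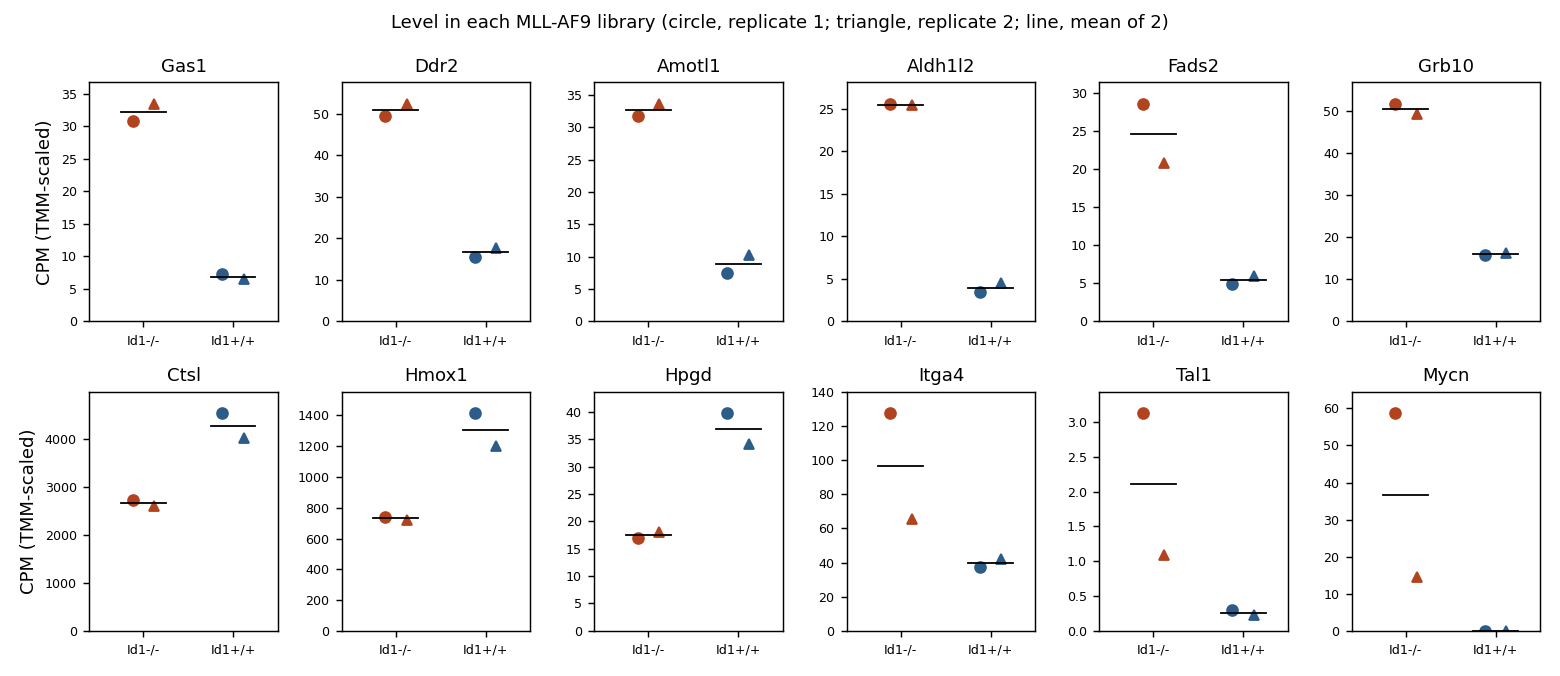
TMM-scaled CPM of 12 genes in each library, Id1-/- left and Id1+/+ right, each panel with its own axis from 0 (circle, replicate 1; triangle, replicate 2; line, mean of 2). In the first 9 panels the Id1-/- pair lies apart from the Id1+/+ pair and within 1.5-fold of each other (28.5 and 20.8 CPM for Fads2), whereas Itga4, Tal1 and Mycn have an Id1-/- replicate 1 well above replicate 2 (127 and 65.8 CPM for Itga4).

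Enzymes that feed protein and nucleotide synthesis were mostly higher where called. Of 32 genes of serine, one-carbon and nucleotide synthesis 15 (46.9%) were higher, 1 lower and 16 not called, and 9 and 1 of the calls were even (median log2 0.39). Aldh1l2, the mitochondrial enzyme that oxidizes formyl-tetrahydrofolate (ENSMUSG00000020256.14, chromosome 10, 83487450 to 83534140, minus strand), was at 25.6 and 25.4 CPM in Id1-/- and 3.48 and 4.47 in Id1+/+ (log2 2.68, SE 0.15, adjusted p = 3.64e-09). Mthfd1l, which makes mitochondrial formate, was at 31.3 and 26.8 CPM in Id1-/- and 13.7 and 14.97 in Id1+/+ (log2 1.02), and Cad, the first enzymes of pyrimidine synthesis, at 57.4 and 51.6 in Id1-/- and 25.5 and 30.9 in Id1+/+ (log2 0.95). Adss, of adenylate synthesis, was the member that fell, at 115 and 103 CPM in Id1-/- and 164 and 162 in Id1+/+ (log2 -0.58).

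Amino acid transporters were higher in 8 of 23 cases (34.8%) and lower in 3, with 4 higher and 0 lower evenly. Without Id1-/- replicate 1, 5 were higher, and 0 were lower there, without Id1-/- replicate 2 or with library totals. The neutral amino acid exchanger Slc1a4 was at 22.9 and 20.5 CPM in Id1-/- and 4.80 and 6.34 in Id1+/+ (log2 1.95, SE 0.15, adjusted p = 1.35e-07), the glycine transporter Slc6a9 at 4.35 and 5.31 in Id1-/- and 0.686 and 1.23 in Id1+/+ (log2 2.31), and the cationic transporter Slc7a1 at 42.4 and 41.0 in Id1-/- and 17.8 and 21.5 in Id1+/+ (log2 1.09). Of 20 aminoacyl-tRNA synthetases 8 (40.0%) were higher and 0 lower, 5 evenly, and 14 were higher with library totals. Their changes were small: Vars, Eprs and Gars had log2 folds of 0.48, 0.40 and 0.38. Gars was at 144 and 141 CPM in Id1-/- and 111 and 108 in Id1+/+.

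The amino acid response element TGATGNAA, which ATF4 is known to bind, lay on either strand in the 250 bases before the start in 3 of 13 promoters of the synthetases (23.1%), against 2.04% of those of all genes tested, 3.39% of even higher calls and 1.02% of even lower calls. Among transporters it lay in 3 of 27 (11.1%), all of them promoters of Slc7a11 and Slc7a7, which were not called, and among one-carbon genes in 1 of 30 (3.33%). The window of Gars (chr6:55037901-55038000, plus strand, GRCm38.p6) is shown as the even member of the 3 synthetases, with the reverse complement of the element in capitals.
Gars: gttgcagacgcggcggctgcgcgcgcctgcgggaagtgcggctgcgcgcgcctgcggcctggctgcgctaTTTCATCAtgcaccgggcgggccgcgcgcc
The element begins 30 bases before the annotated start of Gars.

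Of 41 genes of the endoplasmic reticulum and secretory pathway 16 (39.0%) were higher and 0 lower, 11 evenly (median log2 0.16). Fkbp9, a prolyl isomerase of the reticulum, was at 106 and 118 CPM in Id1-/- and 39.0 and 40.6 in Id1+/+ (log2 1.49, SE 0.09, adjusted p = 6.85e-09), and Sec23a, a coat protein of vesicles that carry procollagen, at 45.2 and 45.4 in Id1-/- and 27.1 and 29.8 in Id1+/+ (log2 0.67). Of 47 genes of glycosaminoglycan synthesis and turnover 19 (40.4%) were higher and 2 lower, of which 8 and 1 were even. The hyaluronan-degrading protein Cemip was at 37.9 and 40.5 CPM in Id1-/- and 10.4 and 12.6 in Id1+/+ (log2 1.77), and the chondroitin polymerizing factor Chpf at 48.6 and 51.9 in Id1-/- and 23.7 and 25.3 in Id1+/+ (log2 1.04). B4galt7, an enzyme of the linker of these chains, fell to 30.1 and 34.3 CPM in Id1-/-, against 51.6 and 49.0 in Id1+/+ (log2 -0.64). The sulfotransferase Chst1 was uneven, at 15.4 and 8.77 CPM in Id1-/- and 3.28 and 1.87 in Id1+/+. Members called higher numbered 12 with DESeq2 or when either Id1-/- library was left out, and 11 without Id1+/+ replicate 1.

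Genes of fatty acid synthesis were mostly higher where called. Of 20 genes of fatty acid synthesis and desaturation 8 (40.0%) were higher and 1 lower, 7 and 0 of them evenly (median log2 0.44). The desaturase Fads2 was at 28.5 and 20.8 CPM in Id1-/- and 4.95 and 5.93 in Id1+/+ (log2 2.18, SE 0.17, adjusted p = 1.07e-07), and the fatty acid synthase Fasn at 81.1 and 73.3 in Id1-/- and 35.2 and 37.4 in Id1+/+ (log2 1.09). Malic enzyme, Me1, which supplies reducing power to this synthesis, had a log2 fold of 0.98. Of 23 genes of cholesterol synthesis and uptake, 0 were higher and 4 (17.4%) lower, 0 evenly. With library totals 2 were higher and 0 lower, and the median of -0.06 was 0.05. The difference between these lists was not tested.

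**Figure D3:**
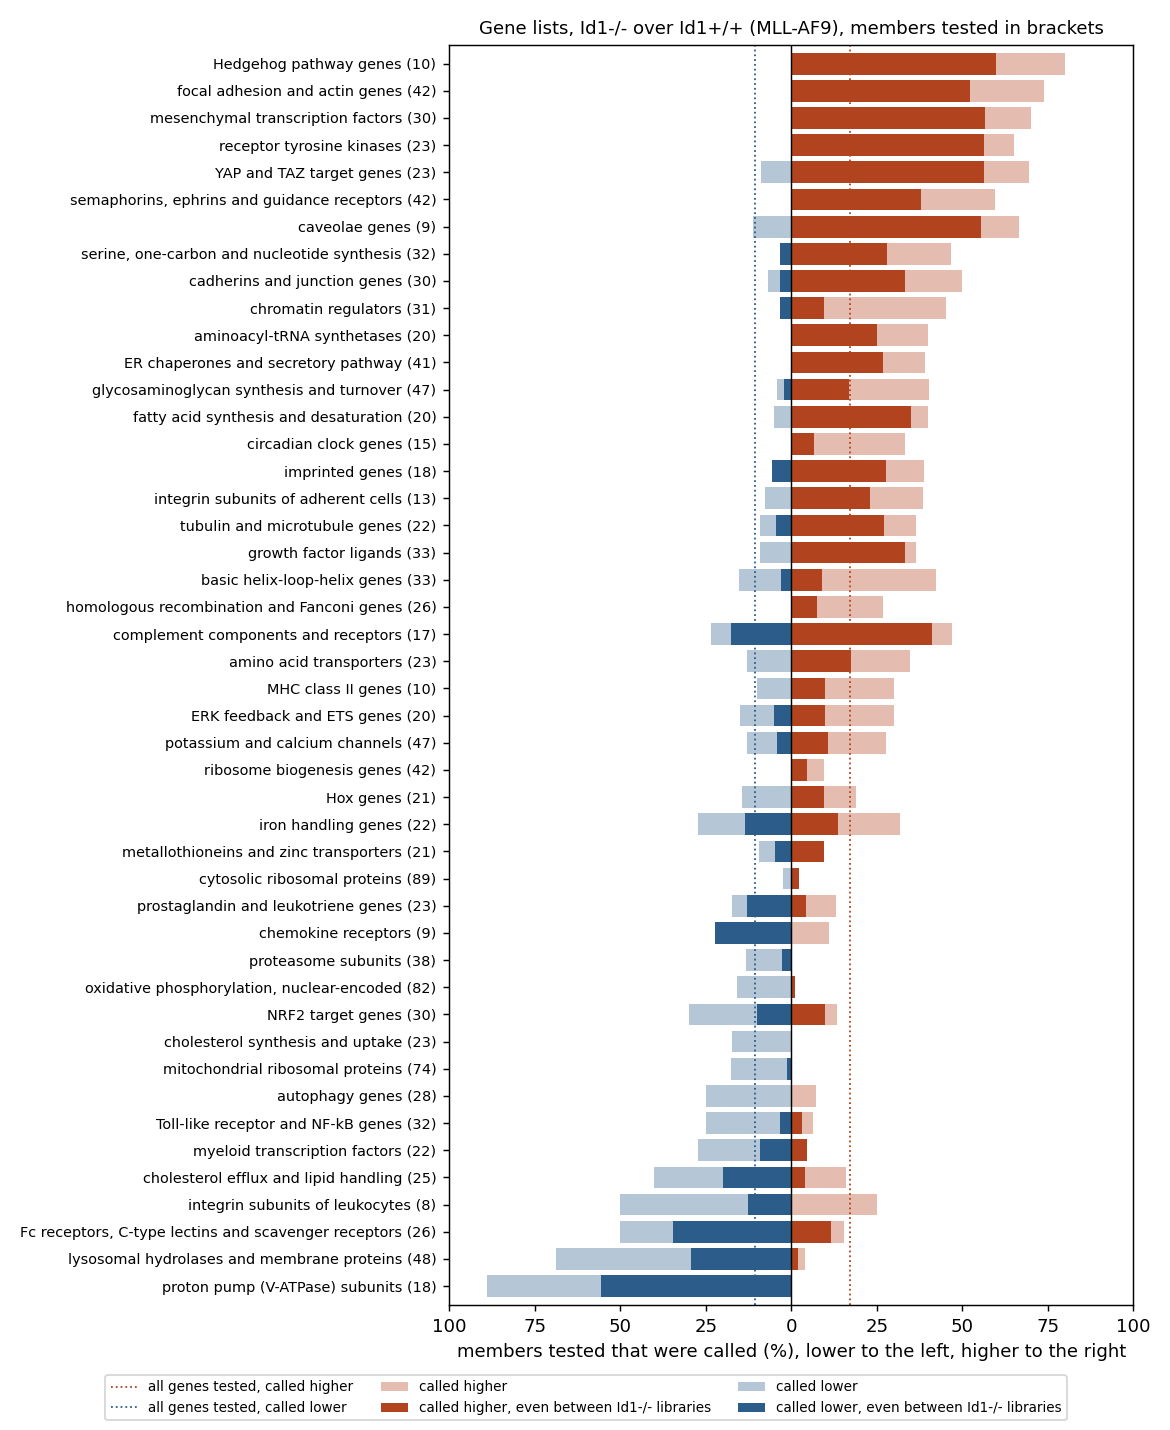
Percent of tested members called higher (right, red) and lower (left, blue) in Id1-/- cultures for 46 gene lists, with even calls in the dark shade and the number tested in brackets. Dotted lines mark all genes tested (17.2% higher, 10.6% lower), and the lists range from Hedgehog genes (80.0% higher) to proton pump subunits (88.9% lower).

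Lysosomal genes were mostly lower. The list took 7.07% and 7.23% of the Id1-/- libraries and 8.63% and 8.51% of the Id1+/+ libraries. Of 48 lysosomal hydrolases and membrane proteins 33 (68.8%) were lower and 2 higher, of which 14 and 1 were even (median log2 -0.30). Ctsl, the cysteine protease cathepsin L (ENSMUSG00000021477.9, chromosome 13, 64359337 to 64370890, minus strand), was at 2741 and 2610 CPM in Id1-/- and 4543 and 4040 in Id1+/+ (log2 -0.68, SE 0.08, adjusted p = 1.5e-05). The aspartic protease Ctsd was at 5578 and 5563 CPM in Id1-/- and 8243 and 7296 in Id1+/+ (log2 -0.48), and the alpha-galactosidase Gla at 270 and 264 in Id1-/- and 395 and 356 in Id1+/+ (log2 -0.49). In each of these the groups did not overlap, and the Id1+/+ libraries differed from each other more than the Id1-/- libraries did. The osteoclast and fibroblast protease Ctsk was higher, at 32.2 and 32.8 CPM in Id1-/- and 23.2 and 22.5 in Id1+/+ (log2 0.51, adjusted p = 0.00155). The median of the list was -0.19 with library totals, where 22 were lower, and 16 were lower without Id1-/- replicate 1.

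The V-ATPase, the proton pump that acidifies lysosomes, gave the highest share of lower calls among the 46 lists. Of 18 subunits 16 (88.9%) were lower and 0 higher, 10 evenly (median log2 -0.39, and -0.27 with library totals, where 13 were lower). Atp6v0d2, a subunit known from macrophages and bone-resorbing cells, had levels of 119 and 116 CPM in Id1-/- and 176 and 167 in Id1+/+ (log2 -0.55, SE 0.08, adjusted p = 8.93e-05). Atp6v0b, of the membrane ring, was at 401 and 445 CPM in Id1-/- and 606 and 567 in Id1+/+ (log2 -0.47), and the accessory subunit Atp6ap1 had a log2 fold of -0.50. All 18 subunits had a log2 fold below 0 in the fit with TMM and 16 with library totals.

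CACGTG, the palindromic E-box that TFEB and Myc family proteins are known to bind and the core of the motif described for lysosomal genes, lay in the 250 bases before the start in 13 of 42 promoters of the lysosomal list (31.0%) and 2 of 16 of the pump (12.5%). The share was 8.22% for all genes tested, 8.12% for even lower calls and 5.91% for even higher calls. Of the lysosomal genes with the motif, Naglu, Gaa, Sgsh and Arsa were not called and Ctsf was higher, while the others were lower. A link between the motif and the decrease was not tested. The windows of Lamp1 (chr8:13159061-13159160, plus strand), Gla (chrX:134601147-134601246, minus strand) and Atp6v0b (chr4:117887330-117887429, minus strand) are shown for their repeated matches, in capitals, from the same table.
Lamp1: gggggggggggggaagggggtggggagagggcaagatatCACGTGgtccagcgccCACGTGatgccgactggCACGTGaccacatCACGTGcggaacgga
Gla: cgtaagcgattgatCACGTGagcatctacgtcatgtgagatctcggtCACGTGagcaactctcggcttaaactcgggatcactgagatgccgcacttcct
Atp6v0b: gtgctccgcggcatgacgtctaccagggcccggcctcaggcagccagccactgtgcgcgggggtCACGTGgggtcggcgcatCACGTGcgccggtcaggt
The membrane protein Lamp1 was at 2175 and 2061 CPM in Id1-/- and 2816 and 2487 in Id1+/+ (log2 -0.32, adjusted p = 0.00865), a call lost without Id1-/- replicate 2 or Id1+/+ replicate 1, while Gla and Atp6v0b were even. Which factor bound there was not measured.

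Other organelle lists had medians little further from 0 than the shift between scalings. Among 28 autophagy genes 7 (25%) were lower and 2 higher, among 38 proteasome subunits 5 (13.2%) were lower, among 82 nuclear-encoded genes of oxidative phosphorylation 13 (15.9%) were lower and 1 higher, and among 74 mitochondrial ribosomal proteins 13 (17.6%) were lower. Their medians were -0.14, -0.15, -0.17 and -0.16, and -0.03, -0.04, -0.06 and -0.05 with library totals. Few calls were even: 0 for autophagy, 1 for the proteasome (Psmb5, log2 -0.40), 1 higher and 0 lower for oxidative phosphorylation, and 1 for mitochondrial ribosomes (Mrps15, log2 -0.40, not called without Id1+/+ replicate 1). The counts hung on single libraries: without Id1+/+ replicate 1, lower calls numbered 2, 1, 1 and 0 in these 4 lists, and without Id1+/+ replicate 2 they numbered 8, 12, 32 and 17. Without Id1-/- replicate 1 they numbered 1, 3, 3 and 2, and without Id1-/- replicate 2 they numbered 1, 1, 1 and 2. The exception within oxidative phosphorylation was Ndufa4l2, a hypoxia-inducible subunit relative, at 2.51 and 3.41 CPM in Id1-/- and 0.686 and 0.776 in Id1+/+ (log2 2.003, adjusted p = 0.00045). Cytosolic ribosomal proteins stayed near the median of all genes, with 2 of 89 (2.25%) higher, 2 lower and a median of -0.05 that was 0.07 with library totals. Of 42 ribosome biogenesis genes 4 (9.52%) were higher and 0 lower, 2 of them evenly.

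**Figure D4:**
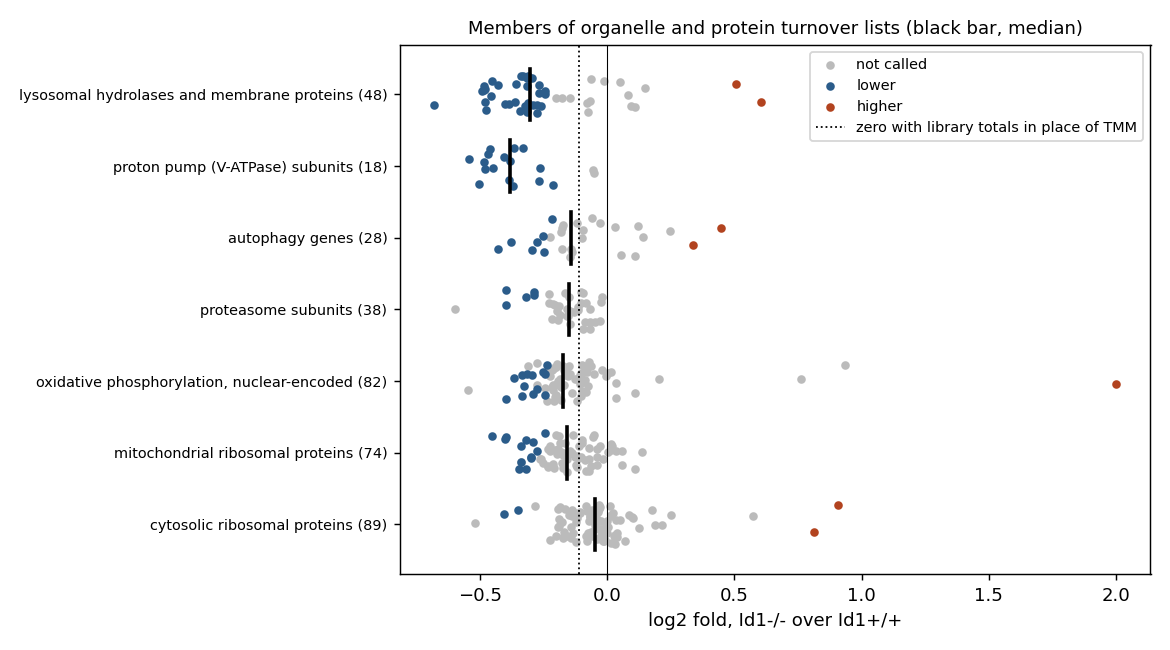
Log2 fold of Id1-/- over Id1+/+ of each tested member of 7 organelle and protein turnover lists, coloured by call, with the median as a black bar and the place of zero under library totals as a dotted line. Lysosomal and proton pump medians (-0.30 and -0.39) lie left of the dotted line by more than those of the other 5 lists.

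Iron and antioxidant genes moved in both directions. Hmox1, the enzyme that degrades haem to release iron (ENSMUSG00000005413.8, chromosome 8, 75093621 to 75100589, plus strand), was at 743 and 719 CPM in Id1-/- and 1413 and 1205 in Id1+/+ (log2 -0.84, SE 0.09, adjusted p = 2.64e-06). Ftl1, the ferritin light chain that stores iron, was at 6554 and 6384 CPM in Id1-/- and 10486 and 9145 in Id1+/+ (log2 -0.60). Both were even, with the Id1-/- libraries below both Id1+/+ libraries. Of 22 iron handling genes 7 (31.8%) were higher and 6 lower, 3 and 3 of them evenly, and of 30 NRF2 target genes 4 (13.3%) were higher and 9 lower, 3 and 3 evenly. The pentose phosphate enzyme G6pdx was lower (log2 -0.43) and the epoxide hydrolase Ephx1 higher (1.08). Ceruloplasmin, Cp, a copper enzyme that oxidizes iron, was at 18.2 and 9.47 CPM in Id1-/- and 1.42 and 1.92 in Id1+/+, and a log2 fold of 3.04, or 2.49 on leaving out Id1-/- replicate 1. Lower NRF2 targets numbered 3 when either Id1-/- library was left out and 4 with library totals or without Id1+/+ replicate 1, and lower iron genes 3 with library totals, without Id1+/+ replicate 1 or without Id1-/- replicate 1. Higher iron genes numbered 4 without Id1-/- replicate 1. Of 21 metallothioneins and zinc transporters 2 (9.52%) were higher and 2 lower, 2 and 1 of them evenly, with the zinc transporter Slc30a4 at 1.54 and the metallothionein Mt1 at -0.45.

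Lipid handling genes were mostly lower where called, and lipid mediator genes were called in both directions. Of 25 genes of cholesterol efflux and lipid handling 10 (40.0%) were lower and 4 higher, of which 5 and 1 were even, with 6 lower under library totals and 5 without Id1-/- replicate 1. The tetraspanin Cd9 was at 497 and 444 CPM in Id1-/- and 818 and 717 in Id1+/+ (log2 -0.70, SE 0.09, adjusted p = 1.98e-05), and the lectin Lgals3 at 5460 and 5359 in Id1-/- and 8109 and 7162 in Id1+/+ (log2 -0.50). Abca1, which exports cholesterol, went the other way, at 69.1 and 75.3 CPM in Id1-/- and 26.8 and 35.4 in Id1+/+ (log2 1.21). Of 23 prostaglandin and leukotriene genes 3 (13.04%) were higher and 4 lower, of which 1 and 3 were even. Hpgd, which inactivates prostaglandins (ENSMUSG00000031613.9, chromosome 8, 56294585 to 56321043, plus strand), was at 16.9 and 18.1 CPM in Id1-/- and 39.7 and 34.0 in Id1+/+ (log2 -1.07, SE 0.11, adjusted p = 3.15e-06). Alox5ap, which presents substrate for leukotriene synthesis, was at 93.4 and 89.6 CPM in Id1-/- and 126 and 125 in Id1+/+ (log2 -0.46), while the prostacyclin synthase Ptgis was at 4.96 and 6.06 in Id1-/- and 1.23 and 1.83 in Id1+/+ (log2 1.84). Alox5 itself was uneven, at 4.86 and 2.54 CPM in Id1-/- and 1.42 and 2.19 in Id1+/+, and not called without Id1-/- replicate 1 (adjusted p = 0.434).

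Receptors of myeloid cells were mostly lower where called. Of 26 Fc receptors, C-type lectins and scavenger receptors 13 (50.0%) were lower and 4 higher, of which 9 and 3 were even (median log2 -0.24, and -0.12 with library totals). The lectin Clec4a2 was at 39.1 and 36.4 CPM in Id1-/- and 65.7 and 58.8 in Id1+/+ (log2 -0.72), and the Fc receptor Fcgr3 at 338 and 326 in Id1-/- and 508 and 445 in Id1+/+ (log2 -0.52). Stab1, a scavenger receptor, was higher, at 190 and 238 CPM in Id1-/- and 140 and 157 in Id1+/+ (log2 0.53). Among 9 chemokine receptors 1 (11.1%) was higher and 2 lower, both of the lower calls being even. Cxcr4, the receptor of Cxcl12 (ENSMUSG00000045382.6, chromosome 1, 128588199 to 128592293, minus strand), was at 319 and 352 CPM in Id1-/- and 512 and 492 in Id1+/+ (log2 -0.58, SE 0.08, adjusted p = 5.37e-05), and Ccr1 at 79.1 and 72.7 in Id1-/- and 115 and 105 in Id1+/+ (log2 -0.53). Myeloid transcription factors were lower in 6 of 22 cases (27.3%) and higher in 1, of which 2 and 1 were even, with Irf5 at -0.52, Spi1 (PU.1) at -0.36 and Klf4 at 0.87, and 2 were lower with library totals or without Id1-/- replicate 1 and 3 without Id1-/- replicate 2.

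The macrophage marker list itself, beside which these values stand, had 7 of 14 lower (50.0%) and 3 higher, with Ctss at -0.48, Tyrobp at -0.37 and C1qa at 0.55, all even. Its lower calls numbered 3 with library totals or without Id1-/- replicate 2 and 4 without Id1-/- replicate 1 or Id1+/+ replicate 1. Neutrophil markers were lower in 7 of 10 cases and higher in 1, and promyelocyte and blast markers in 7 of 11 and 0. Their transcripts summed to 0.0545% and 0.0553% of counts in Id1-/- and 0.0725% and 0.0670% in Id1+/+ for neutrophils, and to 3593 and 3679 counts in Id1-/- and 5271 and 5597 in Id1+/+ for blasts. These sums were nearly equal between the Id1-/- libraries, unlike the uneven genes above. Most of the blast sum came from Hoxa9 (2120 and 2306 counts in Id1-/-) and Meis1 (1048 and 930). Over the blast list the median log2 ratio of Id1-/- replicate 1 over replicate 2 was -0.20. Of the other marker lists, osteoclast genes were higher in 3 of 7 and lower in 2, dendritic cell genes higher in 2 of 4 and lower in 1, and megakaryocyte and mast cell genes higher in 1 of 5 and lower in 1. Mesenchymal markers were higher in 8 of 12 and lower in 1.

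Innate sensing genes gave few even calls. Of 32 Toll-like receptor and NF-kB genes 8 (25%) were lower and 2 higher, 1 and 1 evenly, and the median of -0.01 was 0.10 with library totals. Tlr7, a sensor of single-stranded RNA, was at 68.2 and 59.4 CPM in Id1-/- and 92.0 and 93.0 in Id1+/+ (log2 -0.54, adjusted p = 0.000338), and the NF-kB regulator Nfkbiz at 48.2 and 34.1 in Id1-/- and 17.3 and 16.2 in Id1+/+ (log2 1.30). Lower calls numbered 1 with library totals, 4 with DESeq2, 4 and 1 without Id1-/- replicates 1 and 2 and 2 without Id1+/+ replicate 1. Complement genes were called in both directions and evenly: of 17, 8 (47.1%) were higher and 4 lower, of which 7 and 3 were even. The higher ones are soluble components. C3 was at 79.1 and 76.1 CPM in Id1-/- and 46.4 and 51.8 in Id1+/+ (log2 0.66), and the proteases Masp1 and C1ra had log2 folds of 1.32 and 1.24. The receptors C5ar1 and C3ar1 were lower, with C5ar1 at 317 and 316 CPM in Id1-/- and 448 and 451 in Id1+/+ (log2 -0.51) and C3ar1 at 997 and 1028 in Id1-/- and 1324 and 1311 in Id1+/+ (log2 -0.38). Of 10 MHC class II genes 3 (30.0%) were higher and 1 lower, and 1 was even: the invariant chain Cd74, at 57.9 and 39.9 CPM in Id1-/- and 25.8 and 22.7 in Id1+/+ (log2 1.01).

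DNA repair genes were, of the 46 lists, the one with the highest median ratio between the Id1-/- libraries. Over 26 genes of homologous recombination and the Fanconi pathway the median log2 ratio of Id1-/- replicate 1 over replicate 2 was 0.27, where all genes tested had -0.01. Of these genes 7 (26.9%) were higher and 0 lower, 2 evenly, while 2 were higher without Id1-/- replicate 1, 11 without Id1-/- replicate 2 and 4 without Id1+/+ replicate 1. Brip1, a helicase that binds Brca1, was at 5.47 and 2.33 CPM in Id1-/- and 2.01 and 1.14 in Id1+/+ (log2 1.32, and 0.57 without Id1-/- replicate 1). The even pair was Fancd2, at 3.99 and 3.57 CPM in Id1-/- and 1.67 and 1.73 in Id1+/+ (log2 1.15), and Brca2 (log2 1.18), whose call was lost without Id1+/+ replicate 1.

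Of 31 chromatin regulators 14 (45.2%) were higher and 1 lower, of which 3 and 1 were even, and 7 were higher with DESeq2 or without Id1+/+ replicate 1, with 8 and 9 without Id1-/- replicates 1 and 2. The heterochromatin protein Cbx5 was at 56.2 and 50.2 CPM in Id1-/- and 28.2 and 32.8 in Id1+/+ (log2 0.80), and the histone demethylase Kdm6b at 17.96 and 18.7 in Id1-/- and 7.94 and 9.54 in Id1+/+ (log2 1.06). Hmga1, an architectural protein, was lower, at 480 and 536 CPM in Id1-/- and 741 and 684 in Id1+/+ (log2 -0.49). Lmnb1 and Hmgb2, known to be abundant in dividing cells, were uneven, with Lmnb1 at 34.8 and 22.8 CPM in Id1-/- and 16.4 and 14.5 in Id1+/+ and Hmgb2 at 64.2 and 40.2 in Id1-/- and 31.5 and 29.3 in Id1+/+. Clock genes were higher in 5 of 15 cases (33.3%) and lower in 0, 1 evenly, with 3 and 2 when Id1-/- replicates 1 and 2 were left out, 2 without Id1+/+ replicate 1, 3 with DESeq2 and 8 with library totals. The even member, Clock, was higher by 0.48 on the log2 scale, a call lost without Id1+/+ replicate 1.

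Patterning and imprinted genes were partly even. Of 18 imprinted genes 7 (38.9%) were higher and 1 lower, of which 5 and 1 were even (median log2 0.86). Grb10, an adaptor that dampens insulin and IGF receptors (ENSMUSG00000020176.17, chromosome 11, 11930508 to 12038683, minus strand), was at 51.7 and 49.4 CPM in Id1-/- and 15.8 and 16.2 in Id1+/+ (log2 1.66, SE 0.10, adjusted p = 6.85e-09). Igf2r, which clears IGF2 and carries lysosomal enzymes, was at 165 and 183 CPM in Id1-/- and 99.8 and 123 in Id1+/+ (log2 0.64), and the cell cycle inhibitor Cdkn1c at 92.4 and 96.0 in Id1-/- and 137 and 149 in Id1+/+ (log2 -0.60). Of 21 Hox genes 4 (19.05%) were higher and 3 lower, with 2 higher and 0 lower evenly, and with 1 lower under library totals and 0 without Id1-/- replicate 1. The even calls were Hoxc8, at 2.56 and 2.76 CPM in Id1-/- and 0.539 and 1.004 in Id1+/+ (log2 1.77), and Hoxc6 (1.21). Hoxa9, which MLL fusions are known to activate, was at 108 and 125 CPM in Id1-/- and 139 and 148 in Id1+/+ (log2 -0.30), a call lost without Id1-/- replicate 1 (adjusted p = 0.238) or without Id1+/+ replicate 2 and with library totals.

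Potassium and calcium channel genes were higher in 13 of 47 cases (27.7%) and lower in 6, of which 5 and 2 were even. Itpr1, the calcium release channel, was at 26.9 and 27.7 CPM in Id1-/- and 10.7 and 13.4 in Id1+/+ (log2 1.18), and Orai1, the store-operated calcium channel of the plasma membrane, at 66.3 and 68.3 in Id1-/- and 112 and 92.4 in Id1+/+ (log2 -0.60). Higher calls numbered 6 on leaving out Id1+/+ replicate 1 and 7 on leaving out either Id1-/- library or with DESeq2, and lower calls 2 with library totals or without Id1-/- replicate 1.

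Over all genes with a mean of 5 CPM or more, the 2 largest even increases were those of Ptn, a heparin-binding growth factor (log2 3.997), and of Ighg1, the constant region of an antibody heavy chain. Ighg1 was at 35.7 and 39.5 CPM in Id1-/- and 3.58 and 4.06 in Id1+/+ (log2 3.29, SE 0.14, adjusted p = 1.58e-10). It stood beside B lymphocyte and plasma cell markers, of which 4 of 6 tested were higher, all evenly: Igkc, Ighm, Jchain and Ebf1. Ebf1 is also counted among the mesenchymal transcription factors above, so it does not mark B cells alone here. Jchain was at 10.4 and 9.37 CPM in Id1-/- and 3.23 and 3.61 in Id1+/+ (log2 1.53). The defining B cell genes Cd79a and Cd79b had 12 and 12 counts in Id1-/- and 12 and 6 in Id1+/+ for Cd79a, and 12 and 19 in Id1-/- and 17 and 36 in Id1+/+ for Cd79b, and were not called. Large even increases also came from Cd248 (log2 2.31), a surface protein of pericytes and fibroblasts, from the lipoprotein receptor Vldlr (2.27), at 12.9 and 13.2 CPM in Id1-/- and 2.06 and 3.33 in Id1+/+, from the aggrecan-cleaving protease Adamts5 (2.27) and from the small proteoglycan Ogn (2.35). The largest even decrease was that of Klhl41, a protein known from striated muscle, at 2.81 and 2.38 CPM in Id1-/- and 10.6 and 9.40 in Id1+/+ (log2 -1.94, SE 0.20, adjusted p = 2.19e-06). Npy, a neuropeptide that sympathetic nerves release in marrow, was at 119 and 137 CPM in Id1-/- and 283 and 271 in Id1+/+ (log2 -1.11, SE 0.09, adjusted p = 1.07e-07), and Mamdc2 had a log2 fold of -1.14. None of these genes is among the 23 uneven ones, since evenness was part of the rule that chose them.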

How the data were processed

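The authors deposited raw counts per gene name for 4 MLL-AF9 libraries in 1 table, without normalization. Per the submitters' processing notes the genome was mm10 and the tools include featureCounts 2.0.1, HISAT2 2.2.1 and fastp 0.22.0, with no roles given. The strand setting is not given in the sources used here, so overlapping genes may share reads, and 6 rows repeat a name. Total RNA was extracted with TRIzol and sequenced after TruSeq preparation on a NovaSeq, per the labels' protocols. Samples were grouped by genotype label. After filterByExpr and TMM scaling, genotypes were compared by the two-sided quasi-likelihood test of edgeR 4.0.16 in R 4.3.3, BH-adjusted over 14137 genes, threshold 0.05. Logged CPM used a prior count of 2. On simulated data of 14137 genes it recovered 59.7% of 62 genes set to 1.5-fold, 82.9% of 70 set to 2-fold and 100% of 68 set to 4-fold, with 6 false calls. The simulation drew counts from the model the test assumes. Alternatives were DESeq2 1.42.0, limma-voom (limma 3.58.1), DESeq2 size factors, library totals, no filter, a replicate block and leaving out each library.

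The 59 gene lists, the named genes and the members were chosen with earlier results of these data known, so no list is independent evidence and no set test was run. Named genes are, per list, up to 4 called members with the smallest adjusted p in the main direction, up to 2 in the other and up to 2 uneven ones. Over all genes they are the 12 highest and 12 lowest even folds at 5 CPM or more among genes not named in the earlier results, not all of which are printed. Outside the rule, and so chosen after their values were seen, are the genes of the uneven set, Ptn, Tfec, Y-linked genes, Cd79a, Cd79b, E proteins, Ptch1, Cdon, Ctsd and those of the promoter windows. Gene positions are from GENCODE M21 (GRCm38), and promoters from RefSeq (GRCm38.p6). Some results are not reported here.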

Additional observations from a re-analysis of the deposited data

How the results depend on the processing

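Of 288 named genes, each kept its direction under every one of the 10 alternatives that gave it a value; 2 had none with DESeq2 (Gli2 and Meg3) and 2 none without Id1-/- replicate 1 (Gli2 and Eif2s3y). Calls were lost for 37 named genes with library totals, 32 with DESeq2, 2 without a filter, 1 each with DESeq2 size factors and limma-voom, 0 with a replicate block, and 27 to 70 without 1 library. Genes called lower in Id1-/- numbered 598 with library totals. Without each library in turn, genes called higher ranged from 1555 to 2234 and lower from 621 to 1630. The number of genes called and even between the Id1-/- libraries was 1539 to 1552 when another scaling or test replaced the full fit alone. The fits without an Id1-/- library and the 1.5-fold limit were kept. The narrow range therefore says little about how evenness depends on the processing. No value without a library exists since the rule itself uses the fits without an Id1-/- library.

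For lists with at least 5 calls in a direction, the counts that moved by over 1.5 times were as follows. With library totals they were 14 higher for tRNA synthetases and 8 for clock genes, and, lower, 2 for mitochondrial ribosomal proteins, 1 for the proteasome, 2 for autophagy, 6 for cholesterol efflux, 1 for oxidative phosphorylation, 4 for NRF2 targets, 3 for iron genes, 1 for Toll-like receptor genes, 2 for myeloid transcription factors, 3 for basic helix-loop-helix genes, 2 for channels and 3 for macrophage markers. With DESeq2 they were, higher, 2 for ERK feedback, 12 for glycosaminoglycan, 9 for basic helix-loop-helix, 3 for clock, 7 for chromatin and 7 for channel genes, and, lower, 4 for mitochondrial ribosomal proteins and 4 for Toll-like receptor genes. Of the lists with fewer calls, library totals gave 10 in place of 4 higher for ribosome biogenesis, 7 in place of 4 for NRF2, 6 in place of 2 for Toll-like receptor, 4 in place of 2 for autophagy and 4 in place of 2 for cytosolic ribosomal genes. They gave 0 lower calls for YAP and TAZ targets, caveolae, cytosolic ribosomal, MHC class II and dendritic genes, and 1 for junction, tubulin, zinc and glycosaminoglycan genes. They also gave 2 in place of 1 higher for oxidative phosphorylation and for chemokine receptors, and 1 in place of 0 for endothelial markers. The cause was not tested.

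Without 1 library each, higher calls ranged over 2 to 6 (ERK feedback), 5 to 6 (amino acid transporters), 7 to 10 (basic helix-loop-helix), 7 to 13 (chromatin), 2 to 6 (clock), 11 to 14 (glycosaminoglycan), 2 to 11 (homologous recombination), 3 to 4 (adherent integrins), 4 to 7 (iron) and 6 to 13 (channels). Lower calls ranged over 3 to 10 (NRF2), 1 to 8 (Toll-like receptor), 1 to 8 (autophagy), 3 to 6 (basic helix-loop-helix), 5 to 10 (cholesterol efflux), 3 to 6 (iron), 16 to 31 (lysosome), 3 to 6 (macrophage markers), 0 to 17 (mitochondrial ribosome), 2 to 5 (myeloid factors), 1 to 32 (oxidative phosphorylation), 2 to 6 (channels) and 1 to 12 (proteasome).

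Replicate numbers are shared by the genotypes, but nothing in the labels pairs them, and the differences between replicates correlated by 0.069 over genes for the 2 pairs. With the number as a replicate block 2956 genes were higher and 2237 lower, and the counts that moved by over 1.5 times were 15 lower for the proteasome, 31 lower for oxidative phosphorylation and 13 higher for homologous recombination.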
